A study of Mus musculus with 12 samples.

Results

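The 10 genes described here make up a short list around the transcription factor Nrf2 and were chosen by name. *Nfe2l2* encodes Nrf2 itself, *Keap1* its inhibitor, and *Nqo1*, *Hmox1*, *Gclc*, *Gclm*, *Srxn1*, *Txnrd1*, *Gsr* and *Prdx1* are antioxidant genes known as Nrf2 targets. They are 10 of 38911 genes for which transcript counts were added up, and all 10 passed the filter on low counts that left 16966 genes for testing. Gastruloids are aggregates of embryonic stem (ES) cells that form a body axis in culture. They were made from 200 E14TG2a cells each, a mouse ES cell line kept in 2iLIF, and were harvested on day 4. From day 3 to day 4 they were kept in medium without glucose (0×), with 21.25 mM glucose (1×, the control), with 63.75 mM glucose (3×), or with 5 mM 2-DG in 1× glucose. 2-DG, 2-deoxy-D-glucose, is a glucose analog that blocks hexokinase. The authors describe it as a competitor of mannose in protein glycosylation as well. PolyA RNA was sequenced in 12 libraries, 3 per treatment, and each treatment holds 1 library from ES cells of passage 13, 15 and 16. Each library pools gastruloids of the same treatment and passage, and all come from a single cell line, so that the replicates stand for passages of that line. Depth ranged from 31902471 to 45956080 counts per library.

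Under unstressed conditions Keap1 holds Nrf2 in the cytoplasm and hands it to a ubiquitin ligase built on Cul3, so that the protein is short-lived. Oxidants and electrophiles modify Keap1, Nrf2 accumulates and, paired with a small Maf protein, binds antioxidant response elements upstream of its targets. Much of this control acts on the protein, and mRNA levels of *Nfe2l2* and *Keap1* do not report it.

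To show the sequence context, the stretch of 250 bases before to 50 bases after the annotated start site was searched for the core of the antioxidant response element, TGACNNNGC, on both strands. The RefSeq promoter table of GRCm38.p6 held 9 such windows for 7 of the 10 genes, and *Hmox1*, *Gclc* and *Gsr* had none. The core was found for 5 of the 7 genes, in 5 of their 9 windows, and in 12.4% of all 32851 windows of the same length. The matches upstream of a start site are printed below in capitals with flanking bases, 5′ to 3′ on the strand of the gene. The one in *Prdx1* shares bases with a match to TGACTCA, a related element that was found in 5.2% of all windows.

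Nfe2l2: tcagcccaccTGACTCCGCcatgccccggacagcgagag
Gclm: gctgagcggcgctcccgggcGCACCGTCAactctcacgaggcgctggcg
Txnrd1: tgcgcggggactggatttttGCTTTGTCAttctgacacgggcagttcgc
Prdx1: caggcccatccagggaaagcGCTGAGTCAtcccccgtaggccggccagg

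The *Nfe2l2* stretch lies at chr2:75704875-75704913 on the minus strand, with the match starting 240 bases upstream. The *Gclm* stretch lies at chr3:122245403-122245451 on the plus strand, with the match 134 bases upstream. The *Txnrd1* stretch lies at chr10:82859094-82859142 on the plus strand, 92 bases upstream of 1 of its 3 start sites. The *Prdx1* stretch lies at chr4:116685446-116685494 on the plus strand, 133 bases upstream. The fifth match, in *Srxn1*, lies downstream of the start site. The windows of *Nqo1* and *Keap1* held no match to these letters. A match is a description of the letters and not a binding site.

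In 1× glucose the genes spanned a wide range of expression. Levels were compared per length, as CPM (counts scaled to library size) per kilobase of 1 annotated transcript. *Prdx1*, a peroxiredoxin that reduces hydrogen peroxide, was highest at 204 CPM per kb, followed by *Txnrd1*, cytosolic thioredoxin reductase, at 117. *Gclc* (27.6), *Gsr* (22.1) and *Hmox1* (18.1 CPM per kb) followed without overlap between their libraries. *Nfe2l2* (16.1) and *Keap1* (15.7 CPM per kb) overlapped with each other and with *Hmox1*. *Srxn1* (6.37), *Gclm* (3.63) and *Nqo1* (1.57 CPM per kb) were lowest, in this order, with no overlap between neighbours. The length used for *Keap1* is that of a transcript other than its most abundant one. *Nqo1* rested on only 37 to 180 counts per library.

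**Figure D1:**
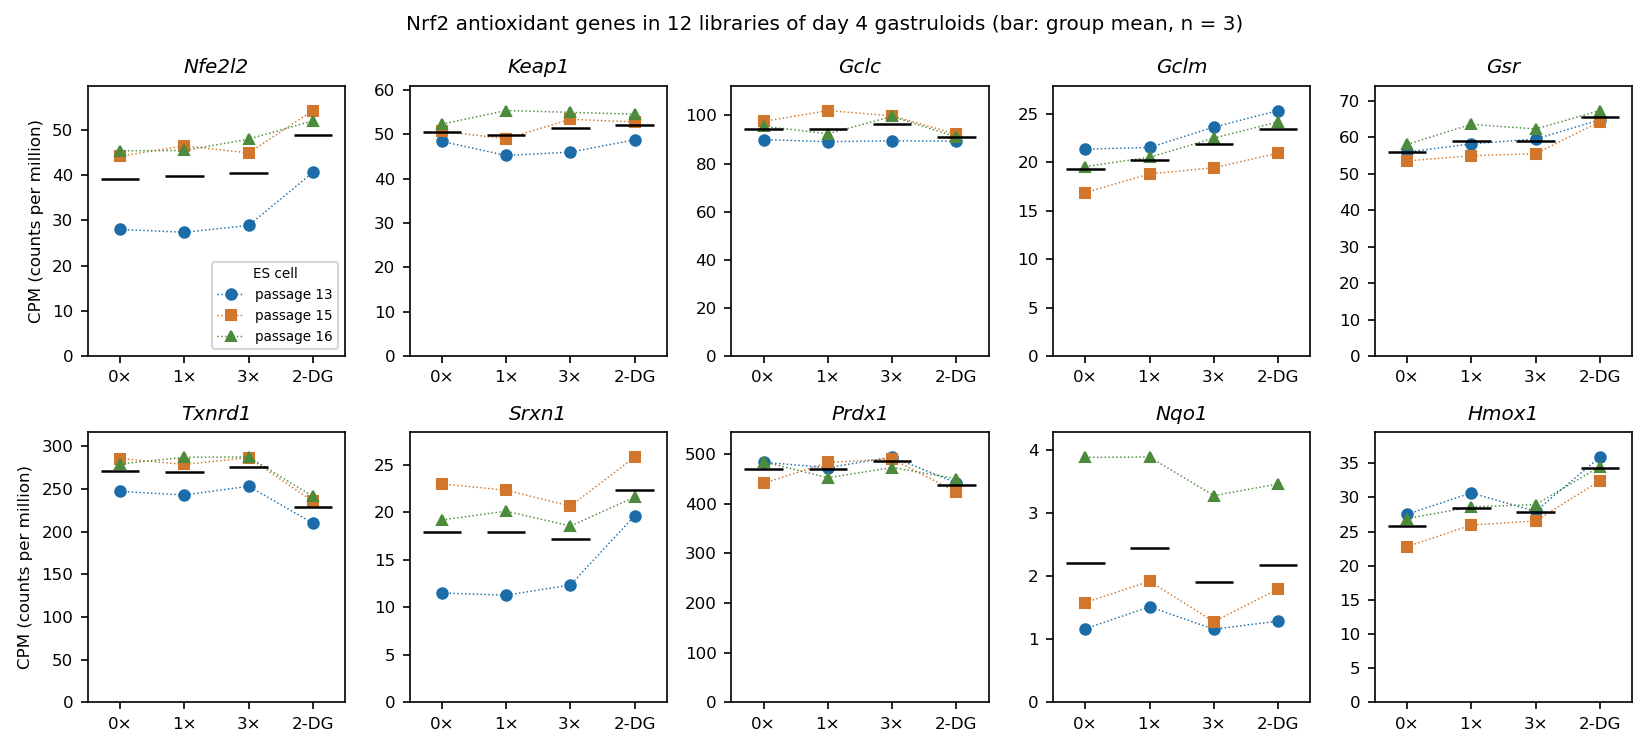
CPM of each gene (y axis, from 0) in the 4 treatments (x axis), with 1 point per library, symbols for the ES cell passage, dotted lines joining libraries of a passage and bars at the mean of 3 libraries. *Hmox1* in 2-DG sits at 32.4 to 35.9 CPM, above all glucose libraries, while *Nfe2l2*, *Srxn1* and *Nqo1* are separated more by passage than by treatment.

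To ask how the genes responded to 2-DG, the 2-DG libraries were compared with those in 1× glucose. The differences were small, between -0.24 and 0.32 on the log2 scale, and 6 of the 10 genes were higher. With edgeR's quasi-likelihood test and no term for passage, 0 of the 10 genes passed an adjusted p of 0.05, against 17.6% of all genes tested (9.12% higher and 8.51% lower), and 3 had an unadjusted p below 0.05, against 31.7% of all genes. DESeq2 called 2 (*Hmox1* and *Txnrd1*), against 21.7% of all genes. With the passage as a block, 6 of the 10 passed, 5 higher and 1 lower, against 41.3% of all genes (21.1% higher and 20.2% lower). The median log2 fold change was 0.11 over the 10 genes and 0.00 over all genes. In 4 of the 10 genes the 3 libraries of 2-DG did not overlap with the 3 in 1× glucose, as in 35.4% of all genes. Whether a gene changed within the same cells or in the makeup of cell types cannot be told apart in bulk RNA, and nor can fewer cells of a type be told from less RNA per cell.

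*Nfe2l2* (chr2:75675513-75704663) was measured at 27.4, 46.5 and 45.5 CPM in 1× glucose (passages 13, 15 and 16) and at 40.6, 54.3 and 52.1 CPM in 2-DG. The 2-DG library was higher in every passage, but the passage 13 library in 2-DG lay below the passage 15 and 16 libraries in 1× glucose. The log2 fold change was 0.30 (SE 0.26, edgeR adjusted p = 0.476). With the passage as a block it was 0.33 (SE 0.069, edgeR adjusted p = 0.00343). Over the alternatives without a block the adjusted p was 0.380 to 0.844, and the alternatives were not combined with the block for any gene. Without the passage 13 library in 1× glucose the unblocked value was 0.09. Over all single libraries left out it ranged from 0.09 to 0.42. With a library left out the 2 groups hold unequal sets of passages, so that these values mix treatment with passage. The ratio of 2-DG to 1× glucose was 1.48 in passage 13, 1.17 in passage 15 and 1.14 in passage 16. With 1 library for each treatment and passage, the difference between these ratios was not tested.

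*Keap1* (chr9:21229730-21239332) was measured at 45.3, 49.0 and 55.4 CPM in 1× glucose and at 48.8, 52.8 and 54.6 CPM in 2-DG. The groups overlapped, and the gene was higher in 2-DG in passages 13 and 15 and slightly lower in passage 16. Its fitted difference was 0.06 on the log2 scale (SE 0.087, edgeR adjusted p = 0.696), with a 95% confidence interval of -0.13 to 0.25.

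Glutathione is made in a pathway whose rate-limiting enzyme has a catalytic subunit, encoded by *Gclc*, and a modifier subunit, encoded by *Gclm*. *Gclc* (chr9:77754535-77794489) was measured at 89.1, 102 and 92.4 CPM in 1× glucose and at 89.3, 92.2 and 91.1 CPM in 2-DG. Its groups overlapped, with a log2 fold change of -0.06 (SE 0.062, edgeR adjusted p = 0.591). *Gclm* (chr3:122245487-122267215) was measured at 21.5, 18.8 and 20.5 CPM in 1× glucose and at 25.4, 20.9 and 24.2 CPM in 2-DG. It was higher in 2-DG in every passage, but the passage 15 library in 2-DG lay below the passage 13 library in 1× glucose. Its log2 fold change was 0.21 (SE 0.11, edgeR adjusted p = 0.230), and with the passage as a block 0.21 (SE 0.053, edgeR adjusted p = 0.00967, against 0.174 to 0.513 over the alternatives without a block). The catalytic and the modifier subunit thus had fitted differences of opposite sign, and the difference between them was not tested.

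*Gsr* (chr8:33653238-33698162) encodes glutathione reductase, which returns oxidized glutathione to its reduced form. It was measured at 58.2, 55.0 and 63.6 CPM in 1× glucose and at 64.8, 64.3 and 67.4 CPM in 2-DG. All 2-DG libraries were above all 1× glucose libraries, although the gap was narrow. The log2 fold change was 0.15 (SE 0.064, edgeR adjusted p = 0.129), and with the passage as a block 0.15 (SE 0.035, edgeR adjusted p = 0.00502, against 0.0611 to 0.413 over the alternatives without a block).

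*Txnrd1* (chr10:82833951-82897724) had the lowest fitted log2 fold change of the 10 genes. It was measured at 243, 279 and 287 CPM in 1× glucose and at 210, 235 and 241 CPM in 2-DG. All 2-DG libraries were below all 1× glucose libraries, and the ratio was 0.864, 0.845 and 0.840 in passages 13, 15 and 16. Its fitted difference was -0.24 on the log2 scale (SE 0.085, edgeR adjusted p = 0.0832), and with the passage as a block -0.24 (SE 0.028, edgeR adjusted p = 0.000107, against 0.0412 to 0.357 over the alternatives without a block). Without the passage 13 library in 1× glucose it passed without a block as well (-0.31, edgeR adjusted p = 0.0412). That fit compared unequal sets of passages, and the log2 ratios within passages were -0.21, -0.24 and -0.25.

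*Srxn1* (chr2:152105524-152111376) encodes sulfiredoxin, which repairs overoxidized peroxiredoxins. It was measured at 11.3, 22.3 and 20.1 CPM in 1× glucose and at 19.6, 25.8 and 21.6 CPM in 2-DG. It was higher in 2-DG in every passage, with ratios of 1.74, 1.16 and 1.07 in passages 13, 15 and 16, and the groups overlapped. The log2 fold change was 0.32 (SE 0.30, edgeR adjusted p = 0.521), and with the passage as a block 0.37 (SE 0.12, edgeR adjusted p = 0.0285, against 0.389 to 0.890 over the alternatives without a block). Without the passage 13 library in 1× glucose the unblocked value was 0.076. Over all single libraries left out it ranged from 0.076 to 0.50. These values, too, mix treatment with passage.

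*Prdx1* (chr4:116685599-116700000) was measured at 472, 483 and 452 CPM in 1× glucose and at 442, 423 and 450 CPM in 2-DG. The 2-DG libraries lay below those in 1× glucose, narrowly so in passage 16 (450 against 452 CPM). Its fitted difference was -0.10 on the log2 scale (SE 0.049, edgeR adjusted p = 0.203) and did not pass with the block either.

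*Hmox1* (chr8:75093618-75100593) encodes heme oxygenase 1, which degrades heme. It was measured at 30.7, 26.0 and 28.6 CPM in 1× glucose and at 35.9, 32.4 and 34.5 CPM in 2-DG. All 2-DG libraries were above all 1× glucose libraries, and the ratio was 1.17, 1.25 and 1.21 in passages 13, 15 and 16. The log2 fold change was 0.27 (SE 0.087, edgeR adjusted p = 0.0553), just short of the threshold, and with the passage as a block 0.27 (SE 0.051, edgeR adjusted p = 0.00173, against 0.0246 to 0.206 over the alternatives without a block). Without the passage 13 library in 1× glucose it passed without a block (0.33, edgeR adjusted p = 0.0483). That fit, too, compared unequal sets of passages, and the log2 ratios within passages were 0.23, 0.32 and 0.27.

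*Nqo1* (chr8:107388225-107403205), a quinone reductase often used as a readout of Nrf2, was measured at 1.51, 1.92 and 3.89 CPM in 1× glucose and at 1.29, 1.80 and 3.46 CPM in 2-DG. Its groups overlapped almost fully, and the passage 16 library was the highest in both. Its fitted difference was -0.16 on the log2 scale (SE 0.58, edgeR adjusted p = 0.888), with a 95% confidence interval of -1.44 to 1.11.

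**Figure D2:**
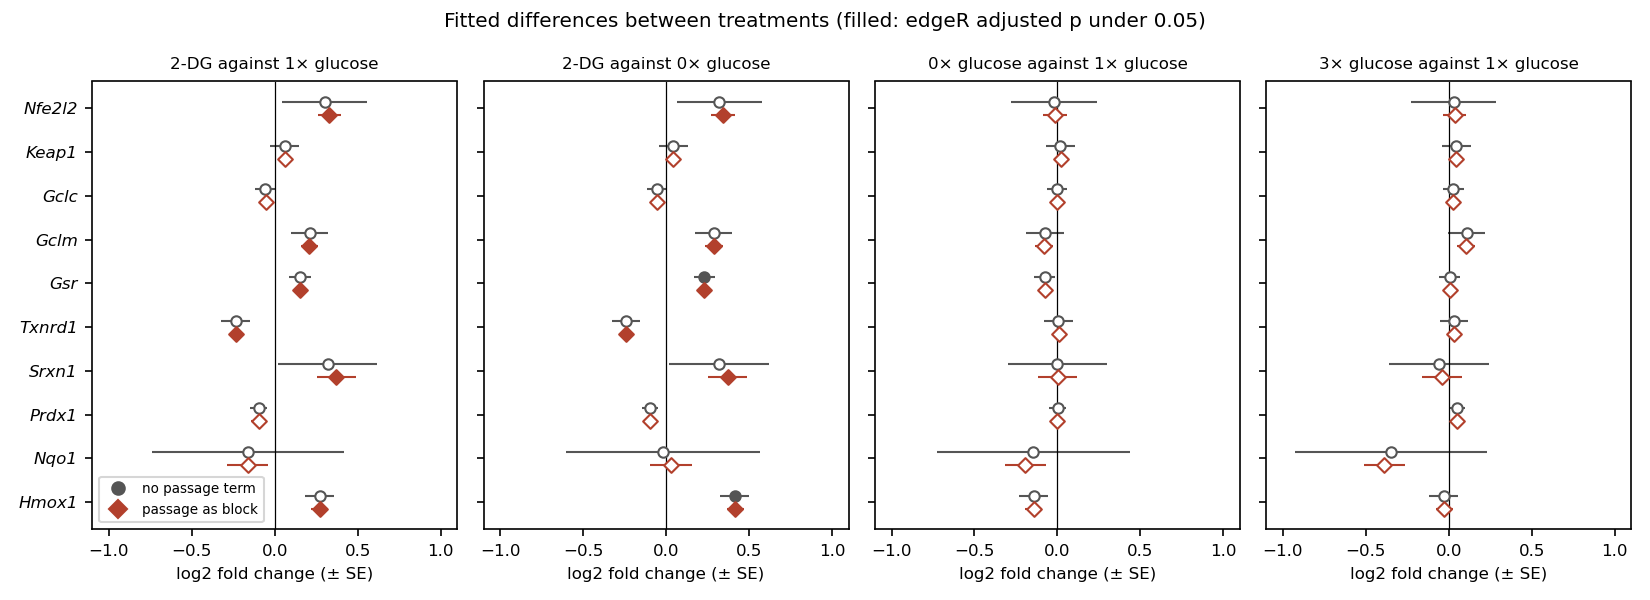
Fitted log2 fold change with its SE (x axis) of each gene in 4 comparisons, without a passage term (grey circles) and with the passage as a block (red diamonds), filled where the edgeR adjusted p was under 0.05. Both fits give nearly the same values, from -0.24 for *Txnrd1* to 0.32 for *Srxn1* without the block in 2-DG against 1× glucose, and the block narrows the SE of *Nfe2l2* from 0.26 to 0.069.

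2-DG was also compared with 0× glucose, which asks whether the inhibitor differs from the lack of glucose. Both comparisons use the same 2-DG libraries. Of the 10 genes, 2 passed the test without a block, both higher, against 18.9% of all genes in either direction (9.86% higher and 9.04% lower). *Hmox1* was measured at 27.5, 22.8 and 26.9 CPM in 0× glucose, below every 2-DG library, with a log2 fold change of 0.41 (SE 0.087, edgeR adjusted p = 0.00893). It passed under every alternative tried, with adjusted p between 0.000125 and 0.0498. *Gsr* was measured at 56.0, 53.6 and 58.1 CPM in 0× glucose, also below every 2-DG library, with a log2 fold change of 0.23 (SE 0.064, edgeR adjusted p = 0.0307). It no longer passed when any 1 of the 6 libraries was left out, with adjusted p between 0.0503 and 0.112. These fits had no block and compared unequal sets of passages. With the passage as a block 6 of the 10 passed, against 43.1% of all genes (21.5% in each direction), and these were the same 6 as against 1× glucose. For *Gclm* the blocked log2 fold change was 0.29 (edgeR adjusted p = 0.00163, against 0.0701 to 0.310 over the alternatives without a block). For *Nfe2l2* it was 0.34 (edgeR adjusted p = 0.00266, against 0.327 to 0.767), for *Srxn1* 0.37 (0.0289, against 0.323 to 0.866) and for *Txnrd1* -0.24 (8.12e-05, against 0.0394 to 0.538). *Txnrd1* passed under 3 of 12 alternatives. Among them were the block and the unblocked fit without the passage 13 library in 0× glucose (-0.30, edgeR adjusted p = 0.0455). The latter compared unequal sets of passages, and the log2 ratios within passages were -0.24, -0.28 and -0.21. The groups did not overlap for 3 of the 10 genes, *Hmox1*, *Gsr* and *Txnrd1*, as for 37.9% of all genes.

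To ask whether glucose itself moved these genes, 0× and 3× glucose were compared with 1× glucose. In 0× glucose, 0 of the 10 genes passed edgeR's test, with or without the block and by DESeq2, against 0.0118% of all genes without and 0.0177% with the block, all of them lower, and 0.0707% by DESeq2. Of the 10, 0 had an unadjusted p below 0.05, against 1.8% of all genes. *Hmox1*, *Gclm*, *Gsr* and *Nqo1* were lower in 0× than in 1× glucose in all 3 passages. *Hmox1* had a log2 fold change of -0.14 that did not pass, and the other genes lay between -0.14 and 0.02. In 3× glucose 0 of the 10 passed in the same 3 fits, against 0% of all genes by edgeR and 0.0118% by DESeq2, and 0 had an unadjusted p below 0.05, against 1.05% of all genes. The values in 3× glucose ran from 28.9 to 48.0 CPM for *Nfe2l2*, 46.01 to 55.0 for *Keap1*, 89.5 to 99.8 for *Gclc*, 19.4 to 23.6 for *Gclm* and 55.5 to 62.3 CPM for *Gsr*. They ran from 253 to 287 CPM for *Txnrd1*, 12.4 to 20.7 for *Srxn1*, 473 to 494 for *Prdx1*, 1.16 to 3.28 for *Nqo1* and 26.6 to 29.0 CPM for *Hmox1*. Log2 fold changes lay between -0.35 (*Nqo1*) and 0.11 (*Gclm*). In both comparisons the groups overlapped for all 10 genes, while they did not overlap for 5.63% and 4.47% of all genes. The confidence intervals still allow differences. The widest, for *Nqo1*, was -1.43 to 1.14 in 0× glucose and -1.63 to 0.93 in 3× glucose. These intervals are from the fit without a block, in which differences between passages count as spread. In 0× against 1× glucose the SE of *Nqo1* was 0.58 without and 0.12 with the block. In each comparison 8 of the 10 values changed sign when a library was left out. Those fits had no passage term and compared unequal sets of passages, so that treatment and passage cannot be told apart in these shifts.

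The values in 0× glucose ran from 28.0 to 45.4 CPM for *Nfe2l2*, 48.4 to 52.3 for *Keap1*, 90.0 to 97.5 for *Gclc*, 16.9 to 21.4 for *Gclm*, 247 to 285 for *Txnrd1*, 11.5 to 23.0 for *Srxn1*, 441 to 484 for *Prdx1* and 1.17 to 3.88 CPM for *Nqo1*. In the lists of redox genes described next, too, 0 genes passed edgeR's test in 0× or 3× glucose, with or without the block.

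The passage of the ES cells separated several of these genes more than the treatments did. In a fit with treatment and passage, 9 of the 10 genes differed between passages by edgeR's quasi-likelihood test, all but *Prdx1* (adjusted p = 0.624), against 46.2% of all genes. Each passage is 1 replicate with 1 library per treatment, so that passage cannot be told apart from anything else that differed between replicates. The p-values rest on the spread left between libraries after treatment and passage, and not on repeated cultures of a passage. The span of the passage means exceeded that of the treatment means for 5 of the 10 genes. *Nfe2l2* was higher by 0.62 in passage 15 and by 0.63 in passage 16 than in passage 13 on the log2 scale (adjusted p = 3.52e-05), and all passage 13 libraries, 2-DG included, lay below all others. *Srxn1* was higher by 0.77 in passage 15 and 0.57 in passage 16 than in passage 13 (adjusted p = 0.000545). *Nqo1* was higher by 1.50 in passage 16 and by 0.35 in passage 15 than in passage 13 (adjusted p = 7.03e-06). *Txnrd1* was higher by 0.19 in passage 15 and 0.20 in passage 16 than in passage 13 (adjusted p = 0.000156), whereas *Gclm* was lower, by -0.27 and -0.08 (adjusted p = 0.00231). For the other 4 that passed, the highest and the lowest passage mean differed by 0.21 (*Keap1*), 0.18 (*Hmox1*), 0.14 (*Gsr*) and 0.13 (*Gclc*) on the log2 scale. *Gclc* did not pass without 1 of 3 libraries (1× glucose passage 13 or 15, or 3× glucose passage 13), and *Hmox1* did not without 1× glucose or 0× glucose passage 15.

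**Figure D3:**
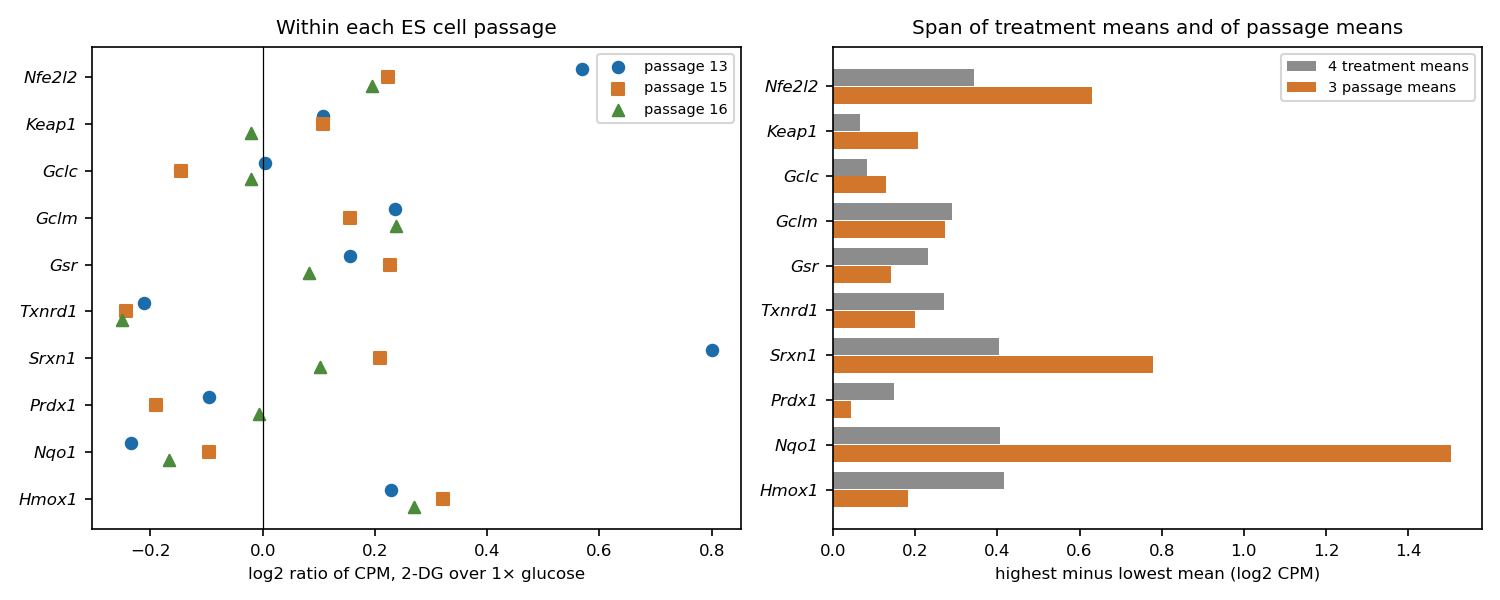
Left, the log2 ratio of CPM in 2-DG over 1× glucose (x axis) for each gene within each ES cell passage (1 library per treatment). Right, the highest minus the lowest of 4 treatment means (grey) and of 3 passage means (orange) of log2 CPM. *Nqo1* has a passage span of 1.50 against a treatment span of 0.41, while for *Hmox1* the treatment span of 0.42 exceeds the passage span of 0.18.

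Markers of cell types moved with passage and with 2-DG. Of all genes tested, 46.2% differed between passages. In 2-DG against 1× glucose 9.12% of all genes were higher and 8.51% lower (21.1% and 20.2% with the passage as a block). Between passages all 6 neural and all 8 posterior mesoderm markers tested differed by the same test. The summed neural markers were at 374 to 429 CPM in passage 13 and at 127 to 206 CPM in the other passages. *Sox17* and *Foxa2*, markers of endoderm, were 7.59- and 6.17-fold higher in passage 16 than in passage 13. Their means in passage 13 were 0.462 and 0.313 CPM. Of the 5 endoderm markers 3 differed between passages, while *Cxcr4* (1.01-fold) and *Gsc* (1.48-fold) did not pass. The 5 markers summed to a median of 51.1 CPM in passage 13 and 57.0 CPM in passage 16. In 2-DG, 4 of 8 posterior mesoderm markers were lower than in 1× glucose (6 with the passage as a block), and their sum was at 264 to 422 CPM against 558 to 862 CPM. Of the neural markers 3 of 6 tested were higher (5 higher and 1 lower with the block), with sums of 193 to 407 CPM against 149 to 412 CPM. The 1 lower was *Nkx1-2*, the largest part of the sum in 1× glucose, with means of 135 CPM there and 68.3 CPM in 2-DG. Of the pluripotency markers 1 of 6 tested was higher (4 with the block), with sums of 58.4 to 72.3 CPM against 37.0 to 51.9 CPM. The definitive endoderm markers summed to 23.9 to 37.4 CPM against 52.1 to 59.3 CPM, with 1 of 5 lower (4 lower and 1 higher with the block). *Cxcr4* made up most of this sum, with means of 49.3 CPM in 1× glucose and 26.7 CPM in 2-DG. The markers of endothelium and blood summed to 5.53 to 14.6 CPM against 49.0 to 64.9 CPM, with 1 of 5 tested lower (4 with the block). *Lmo2* made up most of that sum, with means of 52.0 CPM in 1× glucose and 8.45 CPM in 2-DG. *Hbb-bh1* and *Hba-x* were at 0 in all libraries. The fibroblast markers summed to 9.90 to 13.2 CPM against 9.90 to 12.6 CPM, with 0 of 4 tested called by edgeR without a block and 2 with it, *Col1a2* lower and *Thy1* higher (1 of the 4 had an unadjusted p below 0.05 without a block). Of the macrophage markers *Ptprc*, *Adgre1* and *Aif1* were at 0, and only *Cd68* was tested and was higher in 2-DG. The part of these shifts in the levels of the Nrf2 genes was not tested.

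Around the 10 genes, further redox lists were compared between 2-DG and 1× glucose with the same test. Of all genes tested, 9.12% passed as higher and 8.51% as lower, and with the block 21.1% and 20.2%. Among 12 regulators and partners of Nrf2, 3 rose and 0 fell, with a median log2 fold change of 0.16 against 0.00 over all genes. *Mafg*, a small Maf partner of Nrf2, rose from 145 ± 4.46 to 179 ± 0.696 CPM (SD, n = 3), by 0.30 on the log2 scale (SE 0.036, edgeR adjusted p = 0.000616). *Btrc*, a ubiquitin ligase subunit that can target Nrf2, rose by 0.31 (edgeR adjusted p = 0.0101). *Sqstm1*, which encodes the autophagy receptor p62 that binds Keap1, rose by 0.22 (edgeR adjusted p = 0.00510). With the block, 7 of the 12 were higher and 1 lower.

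Of 22 other known Nrf2 targets 20 were tested, of which 3 rose and 1 fell, with a median log2 fold change of 0.00. Over all genes tested 17.6% passed in either direction. *Abcc4*, an export pump, rose by 0.87 (SE 0.23, edgeR adjusted p = 0.0266). *Blvrb*, a biliverdin reductase, rose by 0.69 (SE 0.16, edgeR adjusted p = 0.0145), and *Tsku*, a secreted protein, by 0.39 (edgeR adjusted p = 0.00189). *Ugdh*, which makes UDP-glucuronate from UDP-glucose, fell by 0.43 (edgeR adjusted p = 0.00108). With the block 5 were higher and 5 lower, against 41.3% of all genes in either direction.

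Among 15 further glutathione enzymes 1 rose and 2 fell, against 17.6% of all genes in either direction. *Chac1*, which degrades glutathione, rose by 2.91 (SE 0.73, edgeR adjusted p = 0.0217), from 1.14 ± 1.11 to 8.62 ± 5.01 CPM (SD, n = 3). *Gss*, glutathione synthetase, fell by 0.37 (edgeR adjusted p = 0.0340) and *Gpx1*, a glutathione peroxidase, by 0.20 (edgeR adjusted p = 0.0198). With the block 3 were higher and 3 lower, against 41.3% of all genes in either direction. Among 18 thioredoxin and peroxide enzymes 1 rose and 1 fell, *Sesn2*, a stress-induced sestrin, by 0.42 (edgeR adjusted p = 0.00165) and *Prdx5*, a peroxiredoxin, by -0.23 (edgeR adjusted p = 0.0418). With the block 2 of the 18 were higher and 6 lower, against the same share of all genes. Against 0× glucose, 2 of the 15 glutathione enzymes were lower, *Glrx5* among them (log2 fold change of -0.16), and 1 was higher. Of the 18 thioredoxin and peroxide enzymes 3 were lower there, *Txn2* and *Txnrd3* among them (-0.17 and -0.25), and 1 was higher. Over all genes 18.9% passed against 0× glucose, in either direction.

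Targets of ATF4, the transcription factor of the integrated stress response, were compared in the same way. Of the 15 genes on this list, which includes *Atf4* itself, 12 rose and 0 fell, against 9.12% and 8.51% of all genes. The median log2 fold change of the list was 0.44, and with the block 13 were higher, against 21.1% of all genes. *Atf4* was among the 12. *Chac1* and *Sesn2* belong to this list as well, and *Slc7a11*, the cystine transporter subunit, is on both this list and that of Nrf2 targets and did not pass (0.17, edgeR adjusted p = 0.303). *Trib3*, a pseudokinase, rose by 2.58 (SE 0.40, edgeR adjusted p = 0.00215) and *Ddit3*, which encodes the transcription factor CHOP, by 0.76 (SE 0.16, edgeR adjusted p = 0.00972). Against 0× glucose 11 of the 15 rose, against 9.86% of all genes. The lists were written with earlier results of these data known, so that these counts are a description.

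**Figure D4:**
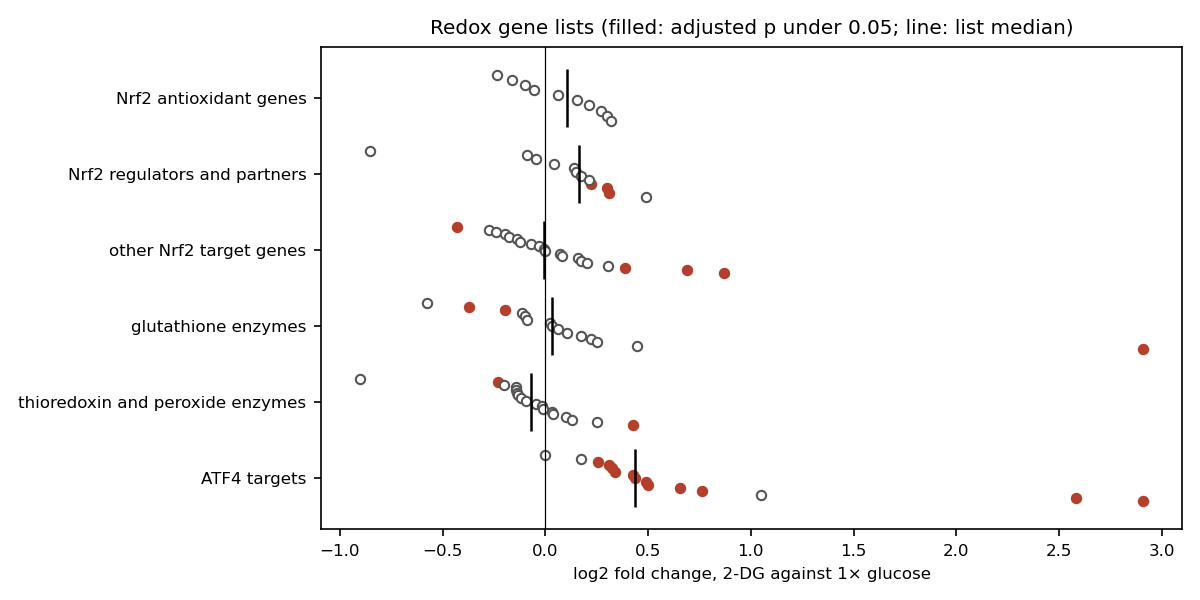
Log2 fold change in 2-DG against 1× glucose (x axis) of each tested gene of 6 lists, filled where the edgeR adjusted p was under 0.05, with a line at the median of each list. None of the 10 Nrf2 antioxidant genes is filled and their median is 0.11. On the ATF4 list 12 of 15 genes, *Atf4* included, are filled and their median is 0.44. Filling is from the fit without a block, and with the block 6 of the 10 and 13 of the 15 passed.

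For the 3 genes with the widest span of treatment means, the genes with the most similar profile over the 12 libraries were sought among all tested genes, by the root mean square difference of centred log2 CPM. For *Hmox1* these were *Eif4ebp1*, an inhibitor of cap-dependent translation (0.0481), and *Cars2*, mitochondrial cysteinyl-tRNA synthetase (0.0622). For *Srxn1* they were *Lhfpl2* (0.0800) and *Glcci1* (0.0830). For *Nqo1* the nearest were *Tbxa2r* (0.239) and *Amhr2* (0.287), at a larger distance.

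Counts had been apportioned between transcripts, which matters for 5 of the 10 genes. *Nqo1*, *Hmox1*, *Srxn1*, *Gsr* and *Prdx1* had 1 transcript each. The main transcript of *Gclc* took between 43.3% and 98.6% of the counts of the gene in a library, and that of *Keap1*, with 4 transcripts, between 39.3% and 68.5%. For *Txnrd1*, also with 4, it took 59.2% to 71.9%, and for *Nfe2l2* 97.6% to 99.4%. All values above are sums over transcripts.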

How the data were processed

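RNA of 12 libraries was analysed. The deposited files hold estimated counts for 120312 RefSeq transcripts, which the authors made with Trim Galore, HISAT2, Picard (removal of duplicates) and StringTie on mm10 (per the labels and methods). Versions, and the strand setting of counting, are not given in the sources used here. All values were whole numbers and were used unrounded. Deposited tables of the authors' own fold changes and adjusted p-values were not used. Transcripts were assigned to genes by the RefSeq table of GRCm38.p6, which named all of them, and were added up per symbol. Genes kept by filterByExpr (16966) were fitted in R 4.3.3 with edgeR 4.0.16 (TMM, glmQLFit, glmQLFTest) over the 4 groups, without a passage term, and p-values were adjusted over all genes by Benjamini-Hochberg with a threshold of 0.05. SEs were derived from the F statistic. CPM use TMM-scaled library sizes. The fit was tested on simulated counts. An exact permutation test of 3 against 3 libraries cannot go below p = 0.1 and was not used.

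The labels give the libraries of a replicate number the same ES cell passage, which pairs them. Deviations from group means correlated at 0.0963 to 0.623 in 18 pairs of the same passage. In the 36 pairs that differed in both passage and treatment they correlated at -0.440 to 0.191. Deviations add up to 0 within a group, so that the 2 ranges are not independent. edgeR's common dispersion fell from 0.0316 to 0.0063 once passage entered the model. Blocked values are given where they change a call of the 10 genes, and as counts for the lists. The block changed no call in 0× or 3× against 1× glucose for these genes. Alternatives were the block, median-of-ratios factors, no filter on low counts and DESeq2 1.42.0. Further ones were the most abundant transcript alone, only the 2 groups compared, and leaving out each library. For comparisons of treatments, those other than the block had no passage term.

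The genes and lists were chosen with earlier results of these data known. Named are all 10 genes, from each further redox list at most the 3 called genes with the largest change in 2-DG against 1× glucose and any called in other comparisons, and the most similar profiles. *Slc7a11*, *Atf4*, *Sox17*, *Foxa2*, *Cxcr4*, *Gsc*, *Nkx1-2*, *Lmo2*, *Col1a2* and *Thy1*, and the marker genes at 0, were named after their values were seen. Lengths per kilobase are from GENCODE M21.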

Additional observations from a re-analysis of the deposited data

How the results depend on the processing

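In 2-DG against 1× glucose, 0 of the 10 genes passed without a block, 6 with the replicate block, 2 with DESeq2 and 0 to 2 when a library was left out. Over all genes, 2990 passed, against 7001 with the block, 653 with the most abundant transcript alone, 1896 with only the 2 groups compared, 3686 with DESeq2 and 1734 to 2352 when a library was left out. In 2-DG against 0× glucose, 2 of the 10 passed, against 6 with the block, 1 with the most abundant transcript alone and 1 to 2 when a library was left out. Over all genes these counts were 3207, 7305, 775 and 2051 to 2619. In 0× against 1× glucose, 2 genes passed over all genes, 12 with DESeq2, 0 with only the 2 groups and 1 to 3 when a library was left out. In 3× against 1× glucose, 0 passed by edgeR (178 at an unadjusted p below 0.05), and 2 with DESeq2 or with the most abundant transcript alone. Of the 10 genes 0 passed in the last 2 comparisons under all alternatives run. Between passages 9 of the 10 passed, 5 with the most abundant transcript alone and 7 to 9 when a library was left out. Over all genes 7840 passed, against 1879 with the most abundant transcript alone.

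Signs changed only for log2 fold changes that passed in neither fit. Apart from the fits with a library left out, which are given below, the changed values were mostly close to 0. In 0× against 1× glucose these were *Prdx1* with the block (-5.2e-05), *Keap1* (-0.0058), *Srxn1* (-0.020), *Txnrd1* (-0.017) and *Prdx1* (-0.023) without a filter, *Gclc* (0.21), *Srxn1* (-0.0040), *Txnrd1* (-0.064) and *Prdx1* (-0.0032) with the most abundant transcript alone, and *Srxn1* with DESeq2 (-0.00037) and with only the 2 groups (-4.5e-05). In 3× against 1× glucose they were *Gsr* without a filter (-0.012) and *Gclc* with the most abundant transcript alone (-0.26). In 2-DG against 0× glucose they were *Nqo1* with the block (0.030) and *Keap1* with the most abundant transcript alone (-0.073). The cause was not tested.

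When a library was left out, log2 fold changes in 0× against 1× glucose ranged from -0.23 to 0.17 for *Nfe2l2*, -0.050 to 0.096 for *Keap1*, -0.83 to 0.36 for *Nqo1*, -0.044 to 0.046 for *Gclc*, -0.16 to 0.0074 for *Gclm*, -0.25 to 0.23 for *Srxn1*, -0.065 to 0.061 for *Txnrd1* and -0.029 to 0.040 for *Prdx1*. In 3× against 1× glucose they ranged from -0.18 to 0.22 for *Nfe2l2*, -0.020 to 0.13 for *Keap1*, -1.005 to 0.16 for *Nqo1*, -0.099 to 0.029 for *Hmox1*, -0.012 to 0.078 for *Gclc*, -0.30 to 0.13 for *Srxn1*, -0.036 to 0.087 for *Txnrd1* and -0.050 to 0.062 for *Gsr*. In 2-DG against 1× glucose they ranged from -0.0045 to 0.14 for *Keap1* and -0.66 to 0.35 for *Nqo1*, and against 0× glucose from -0.51 to 0.67 for *Nqo1*. *Nqo1* rested on 37 to 180 counts per library, and its SE in 2-DG against 1× glucose was 0.58 without and 0.12 with the block. The fits with a library left out had no passage term, so that their ranges hold shifts of passage as well as of treatment.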
